A study of Danio rerio with 6 samples.

Results

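Transcripts of the growing oocyte and of the egg coat were followed in zebrafish whole kidney marrow, where the adult makes its blood cells, in fish that were wild type or heterozygous for rad21nz171, a nonsense allele in exon 8 of rad21a. Rad21 is a subunit of cohesin, the ring-shaped complex that holds sister chromatids together. The genes were chosen by symbol: every row whose name begins with zp2 or zp3, with zpcx and zpd, and 14 listed oocyte and germ cell genes. That gave 35 of the 32057 rows of the deposited table, 20 of the egg coat and 15 others, since the symbol RBPMS2 belongs to 2 rows that the name table does not separate into rbpms2a and rbpms2b. Values are TPM, transcript abundances scaled per gene length and to a fixed total per library. Each genotype had 3 libraries, each from the pooled marrow of 3 adult fish. The wild-type fish were siblings from a cross of heterozygous parents, per the series' design text. Values across the pools of a genotype are given in the order of pools 1, 2 and 3. The sources used here give neither sex nor age for the pooled animals.

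As background, a fish oocyte grows inside an ovarian follicle and stores RNA and protein for the embryo. Zona pellucida (ZP) proteins form the coat around the egg, and in zebrafish their genes are expressed in the ovary. Germ plasm, the material that marks future germ cells, is gathered in the young oocyte in the Balbiani body, a structure that depends on Bucky ball. None of this belongs to the known work of blood-forming marrow.

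The libraries differed before genotype is considered. Marrow genes were high in all of them: hbaa1, an alpha globin, ranged from 10548 to 38224 TPM and lyz, the lysozyme of granulocytes and macrophages, from 13257 to 41724 TPM. A list of 11 liver genes summed to 11640 TPM in wild-type pool 1 and elsewhere ranged from 163 to 457 TPM. The mutated gene, rad21a, measured 110.1, 73.9 and 108 TPM across the wild-type pools, against 67.4, 61.6 and 62.0 TPM across the heterozygous pools. This difference was not called (log2 fold change -0.58, limma adjusted p = 0.30).

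All 35 oocyte and egg coat rows were highest in wild-type pool 2 and second in wild-type pool 3. The share of all genes in that order was not computed, so counts of it here and below are descriptions. Their summed level was 501, 29209 and 8339 TPM in wild-type pools 1 to 3, which is 0.0501%, 2.92% and 0.834% of each library. In heterozygous pools 1 to 3 the sum was 366, 284 and 37.8 TPM. The groups did not overlap, but the spread within the wild type (12683 ± 14839 TPM, SD, n = 3) was larger than its mean, and wild-type pool 1 was 1.37 times heterozygous pool 1. Summed levels over chosen genes are given as a description, with no test. In bulk tissue, a difference in which cells were sampled and a difference in RNA per cell cannot be told apart.

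**Figure D1:**
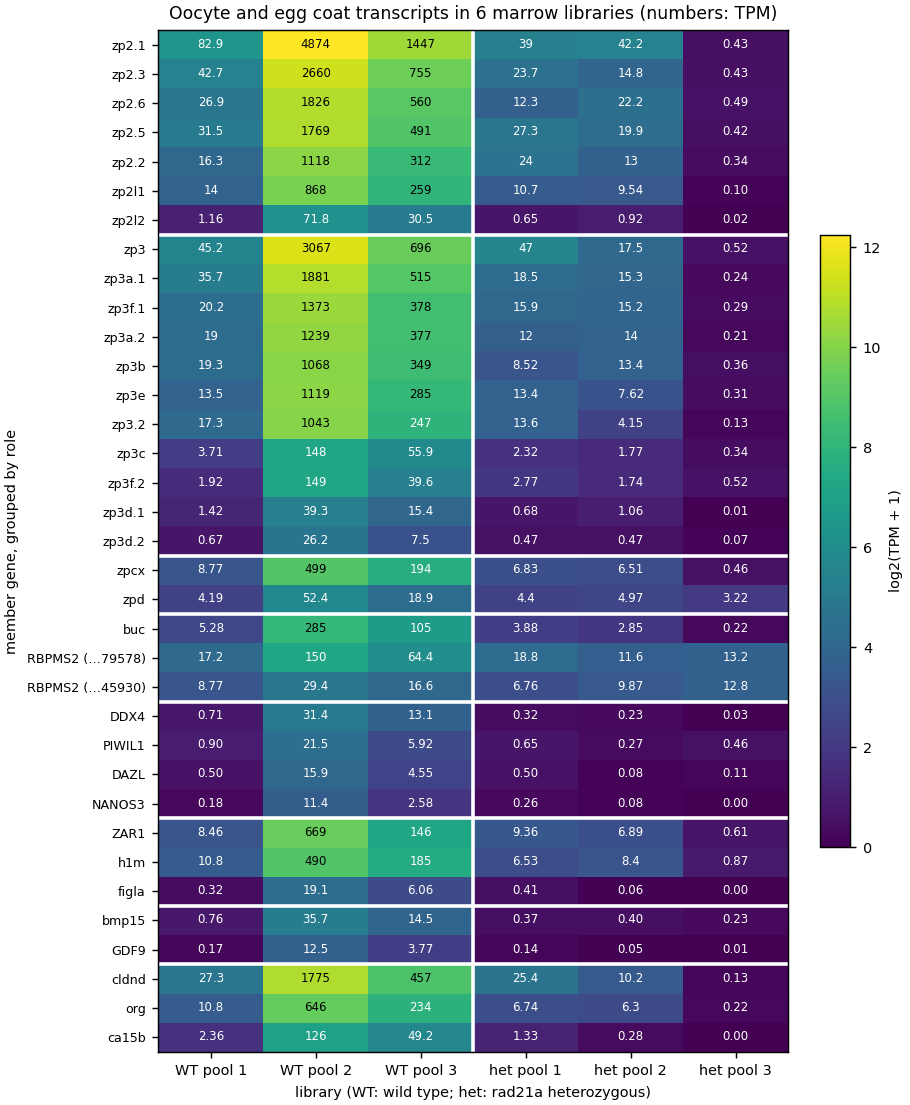
Each cell gives the TPM of a gene (rows, grouped by role) in a library (columns), with colour on the log2(TPM + 1) scale. Wild-type pools 2 and 3 are the brightest columns, and in heterozygous pool 3 both RBPMS2 rows and zpd are the 3 genes at or above 1 TPM.

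The egg coat made up most of this RNA. Its 20 genes summed to 406, 24890.3 and 7031 TPM across the wild-type pools and to 284, 226 and 8.92 TPM in the heterozygous pools. The 7 genes of the ZP2 type and the 11 of the ZP3 type, named for the proteins of the mammalian egg coat, contributed nearly equally. ZP2-type genes summed to 13187 TPM in wild-type pool 2 and ZP3-type genes to 11152 TPM.

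The ZP2-type gene zp2.1 had the highest mean of all 35. It measured 82.9, 4874 and 1447 TPM across the wild-type pools, against 39.0, 42.2 and 0.433 TPM across the heterozygous pools. The groups did not overlap, wild-type pools 2 and 3 were far above the rest, and heterozygous pool 3 was far below the other heterozygous pools. Its relative zp2.3 measured 42.7, 2659.7 and 755 TPM across the wild-type pools, against 23.7, 14.8 and 0.426 TPM across the heterozygous pools. For zp2.6 the values were 26.9, 1826 and 559.7 TPM against 12.3, 22.2 and 0.489 TPM. In zp2.6, unlike zp2.3, heterozygous pool 2 was above pool 1, so the order of the lower libraries was not fixed from gene to gene.

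The values of zp2.5 were 31.5, 1769 and 491 TPM across the wild-type pools, against 27.3, 19.9 and 0.423 TPM in the heterozygous pools. Of the 7 ZP2-type genes, zp2.2 was the exception to separation of the genotypes: it stood at 16.3 TPM in wild-type pool 1 and at 24.0 TPM in heterozygous pool 1. Over the 28762 genes above 0 TPM in any library, all wild-type pools were above all heterozygous pools in 11.5%. Levels within the ZP2 type ran in wild-type pool 2 from 71.8 TPM for zp2l2 to 4874 TPM for zp2.1. In RefSeq's gene order, on the later assembly GRCz12tu and used here for order only, zp2.2 and zp2.3 are direct neighbours, as are zp2.6, zp2.1 and zp2.5 in that order. Reads that fit several members of such a family may be split between them in ways the sources do not give, so single values within it are uncertain.

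Among ZP3-type genes, zp3 measured 45.2, 3067 and 696 TPM across the wild-type pools, against 47.0, 17.5 and 0.524 TPM across the heterozygous pools. Wild-type pool 1 and heterozygous pool 1 were thus level for zp3, and the genotypes overlapped. zp3a.1 stood at 35.7, 1881 and 515 TPM against 18.5, 15.3 and 0.241 TPM, with no overlap. The genotypes did not overlap for 9 of the 11 ZP3-type genes, and the remaining one beside zp3 was zp3f.2. All wild-type pools were above all heterozygous pools in 11.5% of all genes above 0 TPM in any library. Levels of this type in wild-type pool 2 ranged from 26.2 TPM for zp3d.2 to 3067 TPM for zp3. Direct neighbours in RefSeq's order could differ in level, as for zp3f.1 and zp3f.2 at 1373 and 149 TPM in that pool, or lie close, as for zp3a.1 and zp3a.2 at 1881 and 1239 TPM.

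Neither zpcx nor zpd belongs to these types by name. zpcx measured 8.77, 499 and 194 TPM across the wild-type pools, against 6.83, 6.51 and 0.461 TPM across the heterozygous pools, with no overlap. That order was shared by 11.5% of all genes above 0 TPM in any library. zpd, singled out here after its values were seen, stood at 4.19, 52.4 and 18.9 TPM and at 4.40, 4.97 and 3.22 TPM. The lower 4 libraries of zpd lay within a narrow band, and heterozygous pool 3 kept a level near that of the others.

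Genes of the Balbiani body, buc and both RBPMS2 rows, differed among themselves. Buc, the Bucky ball protein, builds that body and with it the first axis of the zebrafish oocyte. buc measured 5.28, 285 and 105 TPM across the wild-type pools, against 3.88, 2.85 and 0.219 TPM across the heterozygous pools, with no overlap. That order was shared by 11.5% of all genes above 0 TPM in any library. Rbpms2 proteins are RNA-binding partners of Buc and are also found outside the ovary. RBPMS2 (ENSDARG00000079578) measured 17.2, 150.0 and 64.4 TPM across the wild-type pools, against 18.8, 11.6 and 13.2 TPM across the heterozygous pools. RBPMS2 (ENSDARG00000045930) stood at 8.77, 29.4 and 16.6 TPM against 6.76, 9.87 and 12.8 TPM. Both RBPMS2 rows overlapped between genotypes and kept their level in heterozygous pool 3, where buc was near 0.

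Germ plasm and piRNA genes reached at most 31.4 TPM but were likewise highest in wild-type pool 2 and second in wild-type pool 3. Ddx4 (Vasa) is an RNA helicase that marks germ cells, Dazl and Nanos3 are RNA-binding proteins of the germ line, and Piwil1 (Ziwi) uses piRNAs to silence transposons. ddx4 measured 0.707, 31.4 and 13.1 TPM across the wild-type pools, against 0.325, 0.233 and 0.0277 TPM across the heterozygous pools. piwil1 stood at 0.904, 21.5 and 5.92 TPM against 0.652, 0.267 and 0.461 TPM. For both genes all wild-type pools were above all heterozygous pools, an order shared by 11.5% of all genes above 0 TPM in any library. Yet in all 4 libraries other than wild-type pools 2 and 3 both genes were under 1 TPM.

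dazl measured 0.497, 15.9 and 4.55 TPM across the wild-type pools, against 0.497, 0.0812 and 0.110 TPM across the heterozygous pools. nanos3 stood at 0.184, 11.4 and 2.58 TPM against 0.255 and 0.0788 TPM in heterozygous pools 1 and 2, and was listed at 0 in pool 3. Wild-type pool 1 lay at or below heterozygous pool 1 for both, so the genotypes overlapped. Because each of these 4 genes reached 1 TPM in only 2 libraries, none entered the test over all genes.

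Of the oocyte regulators, Figla is a transcription factor that in the mouse switches on ZP genes, Zar1 is an RNA-binding protein stored in the egg, and H1m is the linker histone of egg and early embryo. figla measured 0.318, 19.1 and 6.06 TPM across the wild-type pools, against 0.410 and 0.0594 TPM in heterozygous pools 1 and 2, and was listed at 0 in pool 3. zar1 stood at 8.46, 669 and 146 TPM against 9.36, 6.89 and 0.607 TPM. h1m stood at 10.8, 490.4 and 185 TPM against 6.53, 8.40 and 0.875 TPM. The genotypes overlapped for figla and zar1 through heterozygous pool 1, and did not for h1m. All wild-type pools were above all heterozygous pools in 11.5% of all genes above 0 TPM in any library.

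Growth factors Gdf9 and Bmp15 are secreted by the oocyte and act on the follicle cells around it. gdf9 measured 0.171, 12.5 and 3.77 TPM across the wild-type pools, against 0.140, 0.0491 and 0.0136 TPM across the heterozygous pools. bmp15 stood at 0.759, 35.7 and 14.5 TPM against 0.375, 0.405 and 0.228 TPM. Neither overlapped between genotypes, an order shared by 11.5% of all genes above 0 TPM in any library. Outside wild-type pools 2 and 3 gdf9 and bmp15 were below 1 TPM.

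The last 3 genes are a claudin, an oogenesis-related gene and a carbonic anhydrase. Claudins are proteins of tight junctions, and cldnd was the highest gene outside the egg coat. It measured 27.3, 1775 and 457 TPM across the wild-type pools, against 25.4, 10.2 and 0.130 TPM across the heterozygous pools. org stood at 10.8, 646 and 234 TPM against 6.74, 6.30 and 0.218 TPM. ca15b stood at 2.36, 126 and 49.2 TPM against 1.33 and 0.276 TPM in heterozygous pools 1 and 2, and was listed at 0 in pool 3. None of the 3 overlapped between genotypes, an order shared by 11.5% of all genes above 0 TPM in any library. For cldnd the margin between wild-type pool 1 and heterozygous pool 1 was small.

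**Figure D2:**
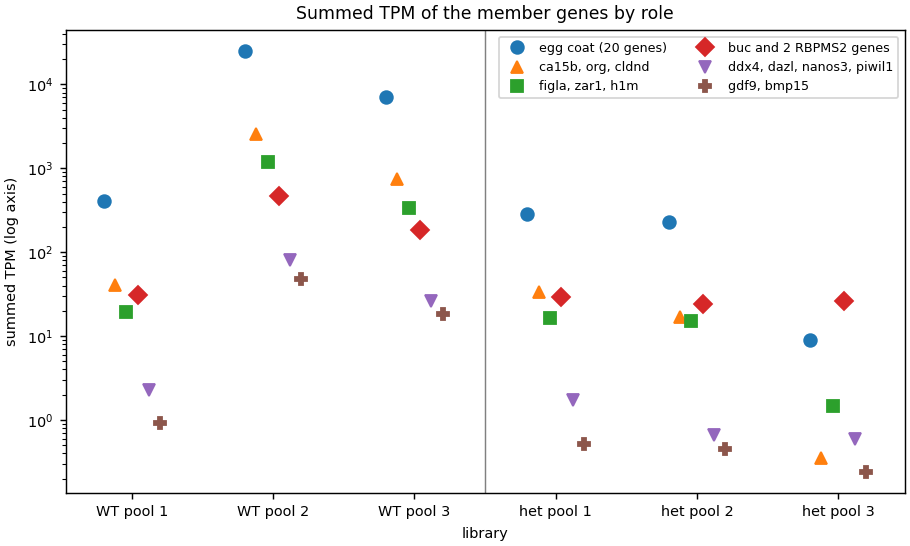
Points give the summed TPM of each role group (log axis) in each library. The egg coat is the highest group in 5 libraries, at up to 24890.3 TPM, and in heterozygous pool 3 it stands at 8.92 TPM, below the 26.2 TPM of buc and the RBPMS2 rows.

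The rank order of the genes was alike in most libraries, while the size of the difference between libraries varied by gene. The ratio of wild-type pool 2 to pool 3 had a median of 3.32 over the 35 genes, with a range from 1.77 for RBPMS2 (ENSDARG00000045930) to 4.58 for zar1. The ratio of wild-type pool 3 to pool 1 had a median of 17.7, from 1.89 for the same RBPMS2 row to 26.3 for zp2l2. Across the 35 genes, Spearman's rho of TPM was 0.993 between wild-type pools 2 and 3 and 0.956 between wild-type pool 1 and heterozygous pool 1. Genes within a library share its preparation and depth and are not replicates, so these are descriptions. Heterozygous pool 3 stood apart, with rho between 0.374 and 0.570 against the other libraries. There the 32 genes other than zpd and the RBPMS2 rows were at most at 0.875 TPM. Their ranks rest on few reads of unknown number, so the low rho need not mean a different order.

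ZP2-type genes held 43.0%, 45.1% and 46.2% of the summed level across the wild-type pools, against 37.7% and 43.2% in heterozygous pools 1 and 2. ZP2-type to ZP3-type sums gave ratios of 1.21, 1.18 and 1.30 in the wild type and of 1.02 and 1.33 in those 2 heterozygous pools. The order of the top genes differed in 1 of these libraries: zp2.1 was 1.83, 1.59 and 2.08 times zp3 in the wild-type pools and 2.42 times in heterozygous pool 2, but 0.830 times in heterozygous pool 1. In heterozygous pool 3 both RBPMS2 rows and zpd held 77.3% of the sum, and the other 32 genes together came to 8.59 TPM. The same 32 genes came to 471 TPM in wild-type pool 1 and to 336 and 257 TPM in heterozygous pools 1 and 2. The germ plasm genes summed to 2.29, 80.3 and 26.2 TPM across the wild-type pools and to 1.73, 0.660 and 0.599 TPM across the heterozygous pools. Between heterozygous pools 2 and 3 that sum differed little, where the egg coat went from 226 to 8.92 TPM. The germ plasm genes did not hold their levels singly, all under 1 TPM there. ddx4 went from 0.233 to 0.0277 TPM and nanos3 from 0.0788 to 0 TPM, while piwil1 went from 0.267 to 0.461 TPM and dazl from 0.0812 to 0.110 TPM.

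**Figure D3:**
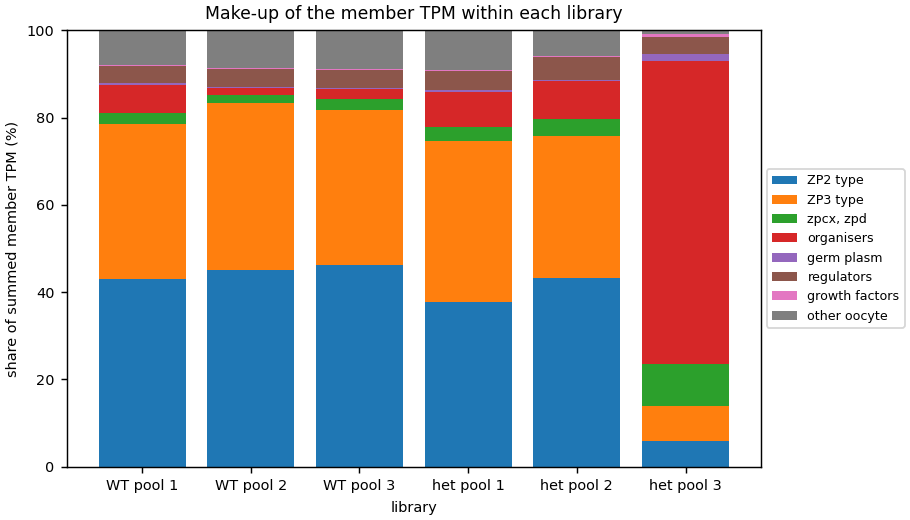
Stacked bars give the share (%) of the summed TPM of the 35 genes held by each role group in each library. ZP2-type and ZP3-type genes hold most of it in 5 libraries, and in heterozygous pool 3 the organisers, mainly both RBPMS2 rows, hold 69.3%.

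The genotype comparison asked whether these levels differ between heterozygous and wild-type marrow. On log2(TPM + 1), 27 of the 35 genes passed the filter of at least 1 TPM in at least 3 libraries, and 0 of them were called at an adjusted p under 0.05 in limma. Among all 16537 tested genes 0.562% were called lower in the heterozygotes. At an unadjusted p under 0.05 the count was 25 of 27, where 7.88% of all tested genes were that low in p and lower in the heterozygotes. zp2l2 passed the filter through the wild-type pools alone, and the 8 genes that did not pass were zp3d.2, ddx4, piwil1, dazl, nanos3, bmp15, gdf9 and figla. With no filter on level, all 35 were tested, 0 were called and 29 had an unadjusted limma p under 0.05, where 7.33% of the 28762 genes in that fit were that low in p and lower in the heterozygotes.

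All 27 fold changes were negative, with a median of -4.87 on the log2 scale beside -0.02 over all tested genes. The lowest belonged to zp2.1, at -5.96 (SE 1.83, 95% interval from -10.32 to -1.59, limma adjusted p = 0.22). The smallest p belonged to zp2.3, whose log2 fold change was -5.76 (95% interval from -9.74 to -1.77, limma adjusted p = 0.21). These intervals are wide on the log2 scale, and the wild-type pools themselves differed by up to 58.3-fold in summed level. For buc the log2 fold change was -4.34 (95% interval from -7.59 to -1.09, limma adjusted p = 0.23), and for zar1 it was -4.27 (from -7.92 to -0.61, limma adjusted p = 0.28). At the other end, zpd had -1.78 (from -3.63 to 0.08, limma adjusted p = 0.35) and RBPMS2 (ENSDARG00000045930) -0.72 (from -1.78 to 0.34, limma adjusted p = 0.48). Those last 2 intervals include 0.

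In 20 of the 27 tested genes all wild-type pools were above all heterozygous pools, where 9.79% of all tested genes were so ordered. Over all 35 genes the count was 25, beside 11.5% of the 28762 genes above 0 TPM in any library. For these 25 the two-sided exact permutation test of each gene gave p = 0.1, the smallest that 3 against 3 allows. Full separation fixes that value, so the test adds nothing to the order itself. In the overlapping genes the same permutation test gave p = 0.2 or 0.3. The exception in each of the 10 overlapping genes came from wild-type pool 1, which was at or below a heterozygous pool, while wild-type pools 2 and 3 were above all heterozygous pools.

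**Figure D4:**
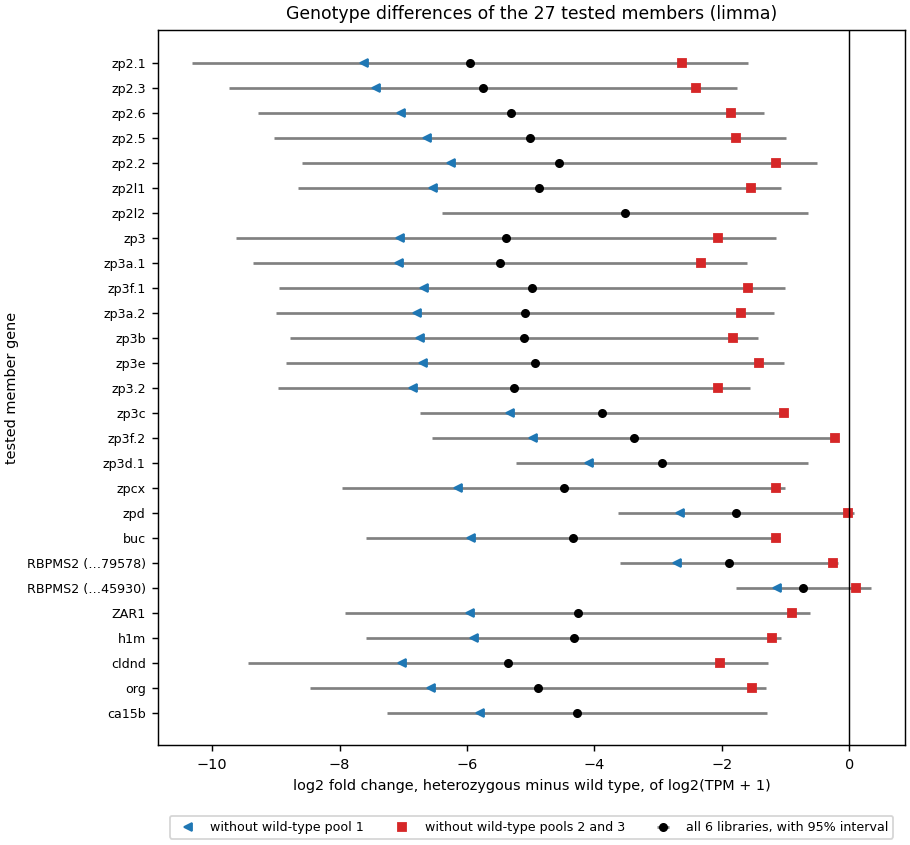
Black points give the log2 fold change of each tested gene, heterozygous minus wild type, with its 95% interval from limma. Blue triangles (without wild-type pool 1) lie lower, and red squares (without wild-type pools 2 and 3) lie closer to 0, from -2.63 to 0.11.

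The count of calls changed only when wild-type pool 1 was left out, while the fold changes moved with each wild-type pool. Without wild-type pool 1, which leaves the pair of wild-type libraries rich in these transcripts, 24 of 26 tested genes were called lower in limma, where 4.14% of all tested genes were. The 2 not called were zp3 (log2 fold change -7.05, limma adjusted p = 0.051) and RBPMS2 (ENSDARG00000045930) (-1.14, limma adjusted p = 0.11). Without wild-type pool 2 the median log2 fold change was -3.58 and without pool 3 it was -4.44, with 0 called in each. An unadjusted limma p under 0.05 was found in 12 and 7 of 26 genes. Among all tested genes, 1722 of 16051 without pool 2 and 1738 of 15947 without pool 3 were that low, in either direction. Without both of these pools, an alternative chosen after seeing the data that leaves 1 wild-type library, 24 genes were tested and 0 were called. The spread in that fit comes from the heterozygous pools alone, among which pool 3 is far lower, and the lone wild-type library is assumed to vary like them, so its p-values say little. The median log2 fold change was then -1.53, with 23 of 24 negative, beside 0.17 over all genes tested in that fit. Leaving out heterozygous pool 3 gave a median of -3.75, 0 called and 11 of 27 at an unadjusted limma p under 0.05. In that fit 1327 of all 16057 tested genes were that low in p, in either direction.

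Other genes of oocytes and eggs were examined through a list of 31 names, which matched 25 rows outside the 35. In 21 of these 25 wild-type pool 2 was highest and pool 3 second, with no share over all genes computed. npm2b, a histone chaperone stored in the egg, measured 8.67, 589 and 220 TPM across the wild-type pools, against 6.59, 12.1 and 0.0933 TPM across the heterozygous pools. zar1l, a relative of zar1, was at 9.87, 571 and 203 TPM against 6.24, 3.93 and 0.0213 TPM. Next came cldng, a claudin, and birc5b, a survivin-like gene, at 486 and 487 TPM in wild-type pool 2, at 17.8 and 5.59 TPM in wild-type pool 1 and at most at 18.5 and 7.35 TPM among the heterozygous pools. Of 16 tested genes all had negative fold changes (median -4.01), 15 had an unadjusted limma p under 0.05 and 0 were called. Of all tested genes 7.88% were that low in p and lower in the heterozygotes. The 4 rows without the order of pool 2, then pool 3, were ctsl.1, igf3, cldnf and sox3, of which the last 3 were under 1 TPM in every library. ctsl.1, a cathepsin, stood at 128 TPM in wild-type pool 1 and at no more than 13.9 TPM elsewhere. Without wild-type pool 1, 14 of 15 tested genes of the list were called. Of all 16086 genes tested in that fit 849 were called, 666 of them lower in the heterozygotes. That fit keeps only the wild-type libraries rich in these transcripts.

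Genes of the piRNA pathway and of meiosis, used by both germ lines, were not uniform. gtsf1, a piRNA pathway protein, measured 16.7, 144 and 45.5 TPM across the wild-type pools, against 3.66, 10.1 and 5.30 TPM across the heterozygous pools. asz1, another piRNA gene, stood at 0.586, 30.3 and 8.77 TPM against 0.315, 0.450 and 0.118 TPM. Genes of meiotic chromosomes differed among themselves. stag3, a meiotic cohesin subunit, measured 0.347, 12.6 and 2.62 TPM across the wild-type pools and spo11, which cuts DNA to start recombination, 0.251, 5.67 and 1.37 TPM, both with at most 0.178 TPM in a heterozygous pool. Another 7 genes, chosen after their values were seen (sycp1, sycp2, sycp3, dmc1, hormad1, msh4 and msh5) summed to 3.84, 4.14 and 2.29 TPM in the wild type and to 2.43, 1.57 and 1.70 TPM in the heterozygotes. That sum differed little between wild-type pools 1 and 2, where ddx4 differed from 0.707 to 31.4 TPM. Its genes did not move together: 5 of the 7 were highest in wild-type pool 1 and 2 in wild-type pool 2. sycp1 held the largest part, at 1.64 TPM in wild-type pool 1 and 2.56 TPM in pool 2, and the others were under 1 TPM. Of the 6 tested genes in the list of 26 matched rows, 6 had negative fold changes, 3 had an unadjusted limma p under 0.05 and 0 were called. Over all tested genes, 7.88% were that low in p and lower in the heterozygotes.

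Genes of the ovarian follicle's somatic cells did not move as a block. In 8 of the 21 matched rows wild-type pool 2 was highest and pool 3 second, hsd17b1, amh and lhcgr among them. Of the 21 rows 8 were under 1 TPM in every library, so their order says little. The 21 matched rows summed to 206, 175 and 198 TPM across the wild-type pools and to 154, 211 and 267 TPM across the heterozygous pools, and most of this was pgrmc1, a progesterone-binding membrane protein, at 133 to 227 TPM. Foxl2 is the transcription factor of granulosa cells, Cyp19a1 is the aromatase that makes oestrogen and Inha is a subunit of inhibin. Both FOXL2 rows, CYP19A1 and inha summed to 12.4 TPM in wild-type pool 2, to 0.735 TPM in pool 3 and to no more than 0.0635 TPM in any other library. These 4 rows were chosen from the list after their values were seen, and their sum was 16.9-fold higher in pool 2 than in pool 3. gsdf, also in the list and also named after its values were seen, was 2.35-fold higher, at 5.29 TPM in wild-type pool 2 and 2.25 TPM in pool 3. Over the 17 rows of the list with at least 0.1 TPM in both pools the median ratio was 1.45, from 0.324 to 25.2, beside 3.32 over the 35 genes. The receptors fshr and lhcgr and the hormone amh, also in the list, did not exceed 0.277 TPM in any library. Of 21 matched follicle rows 5 were tested (pgrmc1, both ESR2 rows, pgr and rspo1, which code for steroid hormone receptors or binding proteins and a Wnt agonist), and 0 were called, with 0 at an unadjusted limma p under 0.05.

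Vitellogenins, the yolk precursors made mainly in the liver of laying females, were set beside other liver genes. The 7 vitellogenin genes summed to 7.02, 266 and 112 TPM across the wild-type pools and to 16.0, 2.05 and 2.82 TPM in the heterozygous pools. vtg1 alone stood at 1.35, 201 and 83.0 TPM against 10.8, 0.277 and 0.0352 TPM. The other 11 liver genes were all highest in wild-type pool 1, where the liver fatty acid binding protein fabp10a stood at 7167 TPM against 99.1 to 385 TPM elsewhere. Of the 7 vitellogenin genes, 6 were highest in wild-type pool 2, and vtg6 was highest in pool 3, at 3.60, 5.40 and 8.48 TPM across the wild-type pools. Their part in the differences between libraries was not tested.

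Most rows of the testis and sperm list did not share the order of the egg transcripts. In this list, 3 of 24 matched rows were highest in wild-type pool 2 and second in pool 3, beside 35 of 35 of the oocyte and egg coat rows. Among the 3 was gsdf, which is also in the follicle list. The share of all genes in that order was not computed, so it is unknown whether 3 of 24 differs from it. Of the 24 rows 6 were under 1 TPM in every library, so their order says little. The highest of the list, dnali1, ropn1l and spata4, named for motile cilia or sperm, stood between 4.64 and 14.4 TPM in every library. cyp11c1, an enzyme of androgen and cortisol synthesis, stood at 13.1 and 31.2 TPM in heterozygous pools 2 and 3, and its highest value elsewhere was 0.153 TPM. dmrt1, a regulator of testis development, did not exceed 0.894 TPM in any library, and insl3, a hormone of Leydig cells, did not exceed 0.393 TPM. Kidney tubule genes, present since kidney marrow lies between tubules, gave a median ratio of 0.430 between wild-type pools 2 and 3. The blood list gave 0.640 and all tested genes 0.943, so a lower level of these lists in pool 2 stood beside its higher level of egg transcripts. TPM has a fixed total, so genes that take more of a library lower all others in it, and the part of this in these ratios was not tested.

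**Figure D5:**
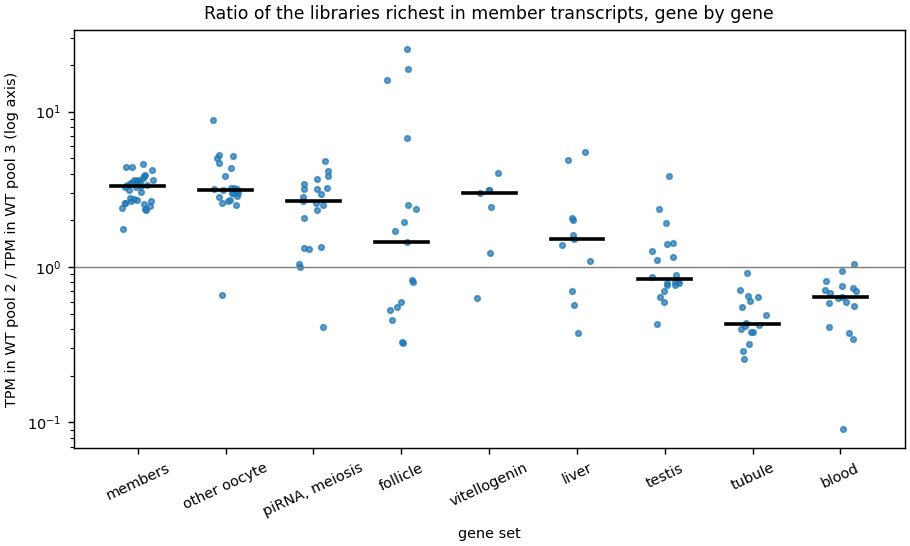
Points give, for single genes with at least 0.1 TPM in both libraries, the ratio of wild-type pool 2 to pool 3 (log axis) by gene set, and black bars give medians. The 35 genes gather near 3.32 and vitellogenins near 2.98, while tubule and blood genes lie mostly below 1 and follicle genes range from 0.324 to 25.2.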

How the data were processed

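RNA from whole kidney marrow was sequenced in 6 libraries, 3 per genotype. Per the labels' protocols, total RNA came from a NucleoSpin kit and the library kit was Illumina's TruSeq. The authors deposited TPM values in 1 table, which sum to 1000000 in each library. FastQC, HISAT2 2.0.4, featureCounts and the build GRCz11 are named in the submitters' processing notes. How strand, overlapping genes and multiply mapped reads were handled, and which annotation gave the lengths, is not given in the sources used here. TPM keeps no depth, so no counting interval or detection limit was computed and the depth per library is unknown.

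A gene name table supplied the symbols. It named 28988 of the 32057 identifiers and gives some zebrafish genes a human-style symbol in capitals. Zebrafish names are used in the text where the match is 1 to 1. Names with an a or b suffix that were absent were matched to the capital form without it. No coordinates are given.

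Genes with at least 1 TPM in at least 3 libraries entered limma 3.58.1 (R 4.3.3) as log2(TPM + 1), with genotype as the only term and a mean-variance trend. Its two-sided p-values were Benjamini-Hochberg adjusted over all tested genes, with a threshold of 0.05. Fold changes on this scale understate those of low genes. For single genes an exact permutation test, two-sided, covered all 20 arrangements of the pools. Of these steps only the main limma fit was tried on simulated data, with spreads drawn from its own fitted trend. P-values measure the spread between pools, and shared clutches are not given. The genes, the lists and the rules for naming genes were chosen with earlier results of these data known. The rule gave all listed genes, up to 6 genes per role and up to 4 per list by mean TPM. Fewer list genes are printed, and those outside the rule (among them vtg1, vtg6, ctsl.1, igf3, cldnf, sox3, dmrt1, insl3, stag3, spo11, the meiotic chromosome genes and follicle markers) were chosen after their values were seen. Alternatives covered the pseudocount, the filter, scaling, the variance trend, the replicate number as a block and leaving out libraries.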

Additional observations from a re-analysis of the deposited data

How the results depend on the processing

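The direction of the 27 tested genes was negative under the pseudocount of 0.1, both looser filters, both rescalings, quantile normalization, no variance trend and the replicate block, and none was called under these. One sign turned: without wild-type pools 2 and 3 RBPMS2 (ENSDARG00000045930) had a log2 fold change of 0.11. With 1 library left out, between 0 and 24 of the genes were called, 24 of them without wild-type pool 1, and the count over all tested genes ran from 4 to 849, of which from 0 to 666 were lower in the heterozygotes. In the context lists these fits called from 0 to 14 other oocyte genes, from 0 to 1 piRNA and meiosis genes, from 0 to 1 testis genes and from 0 to 2 yolk and liver genes. In the main fit 16, 6, 15 and 13 genes of these lists were tested. Over all tested genes the calls ran from 4 of 15947 without wild-type pool 3 to 849 of 16086 without wild-type pool 1, in either direction. Against 227 genes called in all, 93 of them lower, there were 132 and 57 with no filter, 133 and 55 with at least 1 TPM in 1 library, and 0 and 0 without wild-type pools 2 and 3, where 2087 genes had an unadjusted limma p under 0.05 and the spread comes from the heterozygous pools alone. Under quantile normalization, 206 were called higher and 75 lower, beside 134 and 93, and the median of all genes was 0.11 on the log2 scale, beside -0.02. With the replicate number as a block 25 genes were called, 15 lower, and 0 of the 27, with a lowest limma adjusted p of 0.30. Deviations from the group means correlated at -0.27, 0.12 and -0.13 for pools 1 to 3, and 1 of 6 libraries correlated best with its own number. With so few pools per genotype this cannot tell whether libraries of the same number shared a clutch or batch. Genes under 1 TPM in most libraries, the germ plasm genes among them, rest on few reads of unknown number. Without zp2.1 the mean summed level of the wild type was 10548 TPM, beside 12683 TPM with it. Under rescaling or without cldnd summed levels moved by less than their spread. The wild-type spread is larger than the mean itself, so that comparison says little.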

Other observations

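Patterns over the 6 libraries were compared with the mean of the tested oocyte and egg coat genes. Among other tested genes with a gene-like symbol, the most alike were tuba4l, INTS1, rnf8, GTF3A and ZAR1L. The measure was the root mean square difference of centred and scaled log2(TPM + 1), and genes without such a symbol were not ranked. tuba4l, an alpha tubulin, measured 24.5, 1331 and 397 TPM across the wild-type pools, against 14.6, 10.7 and 1.68 TPM across the heterozygous pools. GTF3A, the transcription factor that binds 5S ribosomal RNA genes, stood at 7.41, 575 and 148 TPM against 8.44, 4.64 and 0.126 TPM. Likeness of pattern does not mean likeness of size, since the measure removes each gene's scale. INTS1, a subunit of the Integrator complex, stood at 3.98, 5.62 and 5.12 TPM against 3.93, 3.94 and 3.44 TPM, and rnf8, a ubiquitin ligase of the DNA damage response, at 17.3, 32.8 and 27.6 TPM against 15.9, 15.2 and 12.2 TPM.

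Of 16510 other tested genes, 449 had a Pearson r of at least 0.95 with the mean of the 27 genes over the 6 libraries, a minimum chosen after seeing the data. Their summed level was 15.4% of wild-type pool 2 and 3.94% of wild-type pool 3, 0.377% of wild-type pool 1, and between 0.132% and 0.305% of the heterozygous pools. With 6 libraries, of which 2 set the pattern, this count is a description only.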
